A study of Homo sapiens with 17 samples.

Results

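Naive-only promoter contacts were the pairs of HindIII fragments that the promoter capture Hi-C (PCHi-C) list of naive human pluripotent stem cells (PSCs) held and the list of primed PSCs did not. Each pair joined a baited promoter fragment to a fragment without a bait, here called its partner, on the same chromosome with midpoints at most 1 Mb apart. A pair was kept if the primed list held neither the same 2 fragments nor any contact with both ends within 10 kb of its own ends. The rule found 20117 such contacts among the 128955 fragment pairs listed in either state. They made up 29.7% (95% Wilson interval 29.4 to 30.1) of the 67673 naive contacts of this kind and used 7662 baits and 17101 partners. A further 33330 naive contacts were shared with the primed list as the same pair, and 14226 had only a nearby primed contact. The mirror set, called primed-only, held 23125 of 73433 primed contacts (31.5%). Contact counts given below for the gene lists, their genes and the richest baits are also of this kind. They leave out pairs of 2 baits and longer contacts.

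The study compared promoter contacts and chromatin between both states of the human embryonic stem cell line H9 NK2. Naive PSCs were grown in t2iL+PKCi, a medium with PD0325901, CHIR99021, human LIF and Go6983, on Matrigel, and primed PSCs in TeSR-E8 on Vitronectin. All of these cells were kept at 5% O2 and 5% CO2. Used here were 1 interaction list per state, each combined by the authors from 2 PCHi-C replicates, 1 Hi-C library per state, and H3K4me1 CUT&RUN libraries of 2 naive and 3 primed replicates. Both states came from this single line, and 6 ChIP-seq libraries of the series were not analysed here. The cells were checked through H3K4me1 at the baits of state markers, where a call means an adjusted p under 0.05 in a limma fit over all tested HindIII fragments. Of the 4 baits of naive markers in the lists, those of DPPA5, DPPA3 and SUSD2 had more H3K4me1 in naive PSCs and that of KLF17 was not called. The SUSD2 call was lost without naive replicate 2 (0.79, adjusted p = 0.15), primed replicate 1 (0.78, adjusted p = 0.0831) or primed replicate 3 (0.93, adjusted p = 0.088), and the DPPA3 call with the highest tile of the fragment (0.49, adjusted p = 0.265). None of the 6 baits of primed markers was called by limma, with 0 at an unadjusted p under 0.05, whereas edgeR called 3 of them, those of ZIC2, DUSP6 and SALL2, as higher in primed PSCs. Their log2 differences in limma, naive minus primed, lay between -0.69 and -0.03. The markers without a bait in the lists were 4 of 8 naive and 2 of 8 primed ones.

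In PCHi-C, DNA that lay close together in the nucleus is cut, ligated and enriched for promoter fragments, so that a ligated pair reports the contact of a promoter with a distal region. H3K4me1, methylation of histone H3 at lysine 4 by a single methyl group, marks enhancers and the flanks of promoters, and its presence alone does not show that an enhancer is active. Naive PSCs resemble the epiblast before implantation and depend on LIF with blocked ERK signalling, whereas primed PSCs resemble the epiblast after implantation and depend on FGF and activin.

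To show what lies at the far end of such contacts, 300 bases are printed from 5 partners, taken from the plus strand of the GRCh38 reference at the middle of the 500 bp tile with the highest naive H3K4me1. The first 2 belong to partners with some of the largest gains of H3K4me1 in naive PSCs, contacted by the baits of the U7 pseudogene RNU7-69P (chrX:123456101-123456400, an intron of GRIA3) and of UBAP2 (chr9:34026601-34026900, an intron of UBAP2 itself). The others were chosen from the genes described below after their values and motif matches were seen. They are partners of IL6ST (chr5:56073601-56073900, an intron of ENSG00000249236), REST (chr4:56842101-56842400, intergenic) and TBX3 (chr12:115132101-115132400, intergenic). Some windows run past the cut site into the next fragment. Capitals mark an exact match to GCCNNNGGC, the palindromic motif of TFAP2 factors, and windows without capitals held none of the 6 motifs searched.
RNU7-69P partner: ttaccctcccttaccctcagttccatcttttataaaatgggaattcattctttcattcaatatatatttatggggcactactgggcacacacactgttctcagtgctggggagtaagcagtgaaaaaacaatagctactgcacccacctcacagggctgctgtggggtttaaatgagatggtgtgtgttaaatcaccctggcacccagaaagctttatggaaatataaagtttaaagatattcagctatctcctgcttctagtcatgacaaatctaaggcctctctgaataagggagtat
UBAP2 partner: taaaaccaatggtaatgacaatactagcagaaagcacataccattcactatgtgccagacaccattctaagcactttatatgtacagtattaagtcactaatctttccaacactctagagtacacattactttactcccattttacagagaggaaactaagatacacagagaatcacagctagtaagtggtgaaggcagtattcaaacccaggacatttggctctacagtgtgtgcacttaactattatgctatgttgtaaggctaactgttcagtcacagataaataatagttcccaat
IL6ST partner: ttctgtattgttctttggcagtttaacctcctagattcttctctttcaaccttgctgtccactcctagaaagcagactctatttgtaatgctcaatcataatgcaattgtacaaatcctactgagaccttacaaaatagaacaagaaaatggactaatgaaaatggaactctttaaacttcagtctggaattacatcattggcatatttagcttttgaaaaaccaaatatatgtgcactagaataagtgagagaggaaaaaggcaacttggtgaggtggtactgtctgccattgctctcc
REST partner: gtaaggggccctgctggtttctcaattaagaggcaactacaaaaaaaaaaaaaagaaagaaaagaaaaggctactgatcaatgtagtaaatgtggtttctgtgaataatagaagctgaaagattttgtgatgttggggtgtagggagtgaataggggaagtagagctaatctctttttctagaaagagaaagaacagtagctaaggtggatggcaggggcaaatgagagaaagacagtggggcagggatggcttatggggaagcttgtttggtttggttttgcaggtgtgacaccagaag
TBX3 partner: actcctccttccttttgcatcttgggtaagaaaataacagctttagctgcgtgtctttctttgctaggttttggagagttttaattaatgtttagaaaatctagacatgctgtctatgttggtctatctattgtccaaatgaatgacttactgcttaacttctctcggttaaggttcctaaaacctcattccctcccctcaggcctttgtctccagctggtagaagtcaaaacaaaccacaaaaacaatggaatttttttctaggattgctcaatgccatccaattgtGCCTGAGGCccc

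Naive-only contacts spanned shorter distances than the other classes. Their median distance was 210.6 kb, with the middle 50% between 119.9 and 339.3 kb, against 254.5 kb for shared and 361.6 kb for primed-only contacts. Among naive contacts the naive-only share was highest between 50 and 100 kb, at 40.2%, and fell to 22.0% between 900 and 1000 kb. The primed-only share of primed contacts ran the other way and reached 64.0% in the same last bin. Since the members were selected on these lists, distance, score and reads are descriptions without a test.

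**Figure D1:**
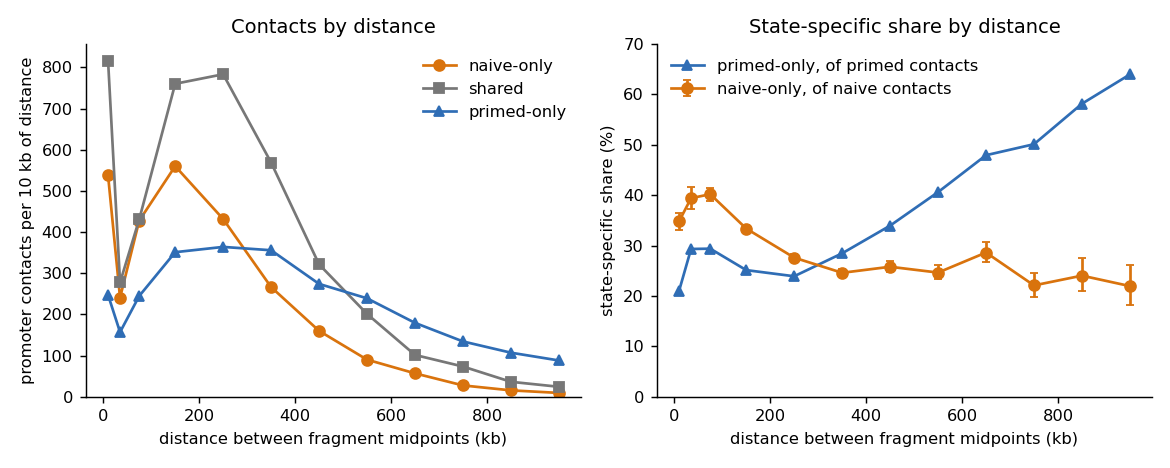
Left, number of naive-only, shared and primed-only promoter contacts per 10 kb of distance, against the distance between fragment midpoints in kb. Right, state-specific share in percent of all naive or primed contacts, with 95% Wilson intervals on the naive-only points; the naive-only share peaks at 40.2% between 50 and 100 kb, while the primed-only share climbs to 64.0%.

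Most naive-only contacts stood close to the limit of detection. The CHiCAGO score, a log-transformed weighted p-value of a pair against its distance background, had a median of 5.85, compared with 7.54 for shared contacts, and the lists start at a score of 5. The median contact had 22 combined reads, against 24 for shared and 18 for primed-only contacts. A score of 10 or more was reached by 2.88% of naive-only, 25.7% of shared and 5.79% of primed-only contacts. Read the other way, the naive-only share of naive contacts was 43.9% at scores from 5 to 6 and 1.55% (40 of 2573) at scores of 15 or more. The highest score of a naive-only contact was 21.4. A primed pair that scored under 5 is missing from its list, so a naive-only contact may have a weaker primed counterpart. To compare enhancer contacts between states, the study for this reason let a pair count at a lower score in either state once it passed in the other.

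Single contacts on either side of the rule's limits had scores near each other. The longest contact inside the limit spanned 997.6 kb with a score of 5.74 and 7 reads, and the shortest one outside it spanned 1003.7 kb with 5.62 and 8 reads. The naive-only contact with the nearest primed contact had it at 10.0005 kb, and 5261 members had one between 10 and 20 kb away. The lowest member score was 5.00, and 1533 members scored under 5.1.

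The contacts were unevenly spread over baits. Of the 7662 baits, 3628 had 1 naive-only contact, while 243 baits with 10 or more together held 3295. For 3266 baits every naive contact within the limit was naive-only, and 1627 baits had no primed contact of any kind at a score of 5 or more. Of the 17101 partners, 11975 had no primed contact and 3484 also took part in a shared contact. Partners lay within an intron of a protein-coding gene in 53.2% of cases, within an exon in 8.41% and between genes in 27.8%, and 15.7% held a protein-coding promoter although the fragment carried no bait. These shares were 50.5%, 7.84%, 29.8% and 13.4% for shared partners. Of the 15094 contacts whose bait carried a protein-coding promoter, 17.7% joined the partner to its nearest protein-coding start, as did 16.8% of shared contacts.

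Chromosomes X and 19 carried the highest naive-only shares. On chromosome X 1101 of 2176 naive contacts were naive-only (50.6%, 48.5 to 52.7), from 325 baits, and on chromosome 19 529 of 1109 were (47.7%, 44.8 to 50.6). Chromosome 21 followed with 37.7%, and chromosome 5 had the lowest share, 22.6%. The primed-only share was also high on chromosome 19, at 43.4%, and was 37.3% on chromosome X. On both, H3K4me1 was more often higher in naive PSCs, at 43.1% of all tested fragments of chromosome X and 37.0% of those of chromosome 19, against 25.6% over all tested fragments. In the other direction 26.7% of all tested fragments were called. H3K4me1 over all tested fragments did not follow the contact shares on every chromosome. Chromosome 18 had the next share after chromosome 21, 34.2% (30.8 to 37.9), but the lowest percentage of fragments higher in naive PSCs, 18.98%, and chromosome 15 had 31.4% and 21.9%, beside 22.1% on chromosome 5. Tested partners of naive-only contacts had another order, with 39.8% higher in naive PSCs over all chromosomes. Their shares were 53.8% on chromosome X, 46.5% on 18, 43.8% on 5, 41.0% on 15 and 38.6% on 21. Chromosome 19 had 32.0%, below the 37.0% of all its tested fragments. The part of copy number in these shares was not tested, and the study names an altered copy number of chromosome 19 in both states. The naive to primed ratio of Hi-C contacts between adjacent 100 kb bins, relative to all chromosomes, was 1.34 on chromosome 21, against 1.08 on chromosome 19, 1.03 on chromosome X and 0.941 to 1.102 over all chromosomes but 21.

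**Figure D2:**
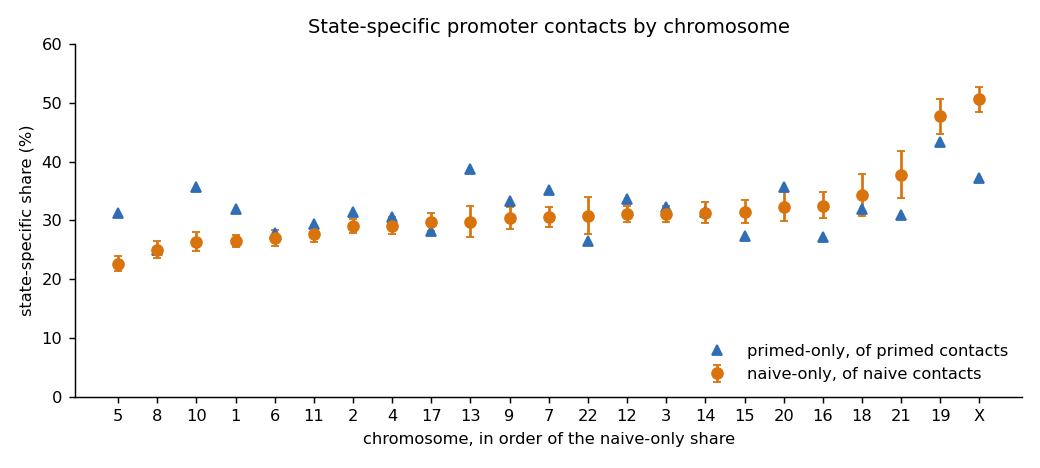
State-specific share of promoter contacts in percent for each chromosome, in order of the naive-only share; circles with 95% Wilson intervals show naive-only contacts of all naive contacts, and triangles show primed-only contacts of all primed contacts. Chromosomes X (50.6%) and 19 (47.7%) stand above the rest, which lie between 22.6% and 37.7%.

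Hi-C, which does not enrich promoters, gave relatively more naive than primed contacts at these places. Over the 5719 pairs of 100 kb bins that contained a naive-only contact at bin distances of 100 to 300 kb, 1325406 naive and 1462665 primed Hi-C contacts were counted. Relative to all bin pairs at the same distance, the log2 ratio of naive to primed was 0.11 (95% interval from counting error only, 0.10 to 0.11). It was 0.02 for bin pairs with shared and -0.09 for those with primed-only contacts. Bin pairs holding a naive-only contact and no other class gave 0.14. Of the naive-only bin pairs 68.3% lay above the base, against 52.9% of all bin pairs. With 1 Hi-C library per state there is no replicate check, and PCHi-C was captured from Hi-C material, so both assays share their cells.

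H3K4me1 was measured in other libraries and was not used to choose the contacts. Each fragment was given the mean log2 RPM (reads scaled to the size of the library) of its 500 bp tiles, and the 147715 fragments with a tile above 1 RPM in at least 2 of the 5 libraries were tested with limma, with Benjamini-Hochberg adjustment over all of them. Of all fragments tested, 25.6% had more H3K4me1 in naive and 26.7% more in primed PSCs at an adjusted p under 0.05. Of the 17101 partners of naive-only contacts, 5860 could be tested. Among these, 2330 had more H3K4me1 in naive PSCs, 39.8% of those tested and 13.6% of all partners. In the other direction, 751 had more in primed PSCs, 12.8% of those tested and 4.39% of all. The libraries of the states did not overlap at 2324 of the former and 741 of the latter. Over all tested fragments this held for 37758 of the 37850 called higher in naive and 39009 of the 39441 called higher in primed PSCs. The partners were thus like all called fragments in this respect. The median log2 difference was 0.59 over tested partners and -0.02 over all tested fragments.

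Partners of shared contacts lay in between. Of their 7712 tested fragments 28.4% were higher in naive and 19.7% higher in primed PSCs, with a median difference of 0.21. Among 5110 tested partners of primed-only contacts these values were 25.4%, 26.7% and -0.04. No test was made between the classes. Naive-only partners without any primed contact were higher in naive PSCs in 42.5% and higher in primed PSCs in 11.8% of 3957 tested, and those with some primed contact in 34.0% and 14.9% of 1903. Neighbouring partners share a marked region and are not independent of each other. Whether a difference reflects more marked cells or more mark per cell cannot be told apart in bulk libraries. The study's methods call the CUT&RUN libraries biological replicates, but the sources used here do not say whether they came from separate cultures, so the p-values measure the spread between these libraries.

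The share of partners carrying the mark, counted as a tile above 1 RPM, differed between single libraries too. For naive-only partners it was 29.7% and 34.7% in the naive libraries and 27.6%, 24.0% and 18.4% in the primed ones. The lowest naive library was thus above the highest primed one. For shared partners the naive values were 24.2% and 28.3% and the primed values 28.9%, 24.0% and 18.98%, so the states overlapped. For primed-only partners they were 19.4% and 22.9% against 26.7%, 20.7% and 17.9%. Over all fragments of the genome, primed replicate 1 had the highest share, 18.4%, with naive values of 12.9% and 14.8%. The deepest library, primed replicate 3 with 26596518 reads, had the lowest shares, and the other libraries held 6743809 to 21785481 reads.

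The mark around naive-only partners formed a broad plateau. Mean H3K4me1 at the fragment middle was 0.444 and 0.442 RPM per tile in the naive libraries and 0.353, 0.316 and 0.325 RPM in the primed ones. At 20 kb on the lower-coordinate side it was still 0.392 and 0.401 RPM in naive against 0.304, 0.294 and 0.292 RPM in primed libraries. The naive libraries were above the primed ones at the middle and at this edge. Shared partners had the same order with a smaller gap, with 0.3802 and 0.379 RPM in naive against 0.377, 0.325 and 0.3396 RPM in primed libraries at the middle, and 0.344 RPM in both naive libraries against 0.318, 0.297 and 0.302 RPM at the edge. Around primed-only partners the middle values were 0.315 and 0.310 RPM in naive and 0.358, 0.297 and 0.325 RPM in primed libraries, and at the edge 0.305 and 0.304 RPM against 0.297, 0.274 and 0.283 RPM. The naive libraries thus lay above the primed ones 20 kb away from the partners of each class, and at the middle of naive-only and shared partners.

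**Figure D3:**
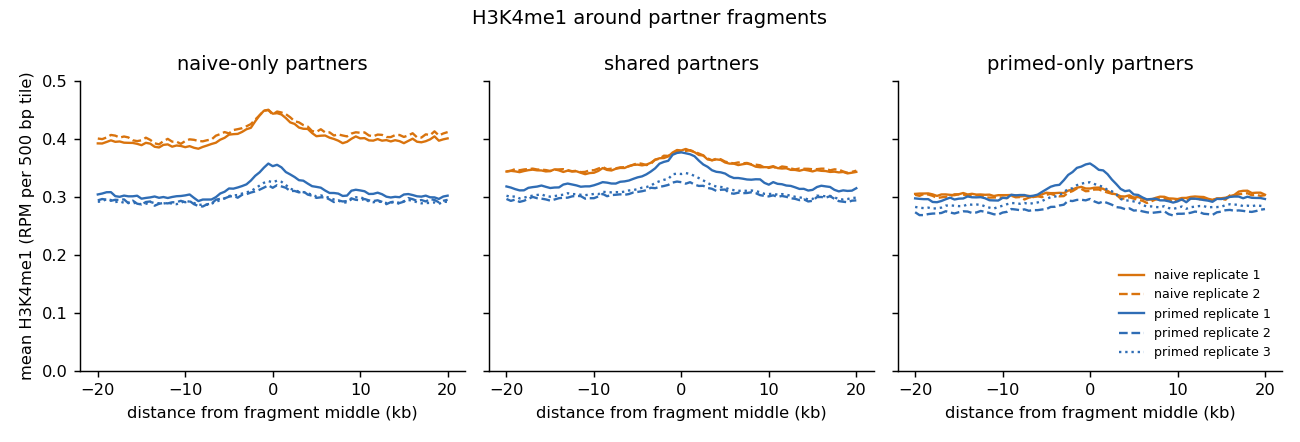
Mean H3K4me1 in RPM per 500 bp tile against the distance in kb from the middle of the partner fragments of naive-only, shared and primed-only contacts. Each line is 1 library, orange for naive and blue for primed; both naive lines run above the 3 primed lines around naive-only partners (0.442 or more against at most 0.353 RPM at the middle) and, by less, around shared partners (0.379 or more against at most 0.377 RPM), and lie among them at the middle of primed-only partners.

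The share of partners with more H3K4me1 in naive PSCs was largest close to the promoter. Of the tested partners of naive-only contacts within 50 kb of the bait, 474 of 783 (60.5%) were higher in naive and 32 (4.09%) higher in primed PSCs. Between 50 and 100 kb the shares were 53.5% and 4.42%, between 100 and 200 kb 42.4% and 9.09%, and between 200 and 300 kb 31.3% and 16.5%. Beyond 500 kb 22.5% were higher in naive and 24.7% higher in primed PSCs, close to the genome-wide shares. Shared partners also declined with distance, from 43.1% to 18.7% higher in naive PSCs. For primed-only partners the naive-higher share stayed between 21.9% and 30.0% in each bin. The score made less difference, since 118 of 250 tested partners (47.2%) with a score of 10 or more were higher in naive and 18 (7.20%) higher in primed PSCs. Gene lists described below are set beside shares over all distances, without matching for distance. The median distance of their naive-only contacts ran from 96.0 kb for the LIF and JAK-STAT list to 425.7 kb for the primed list.

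**Figure D4:**
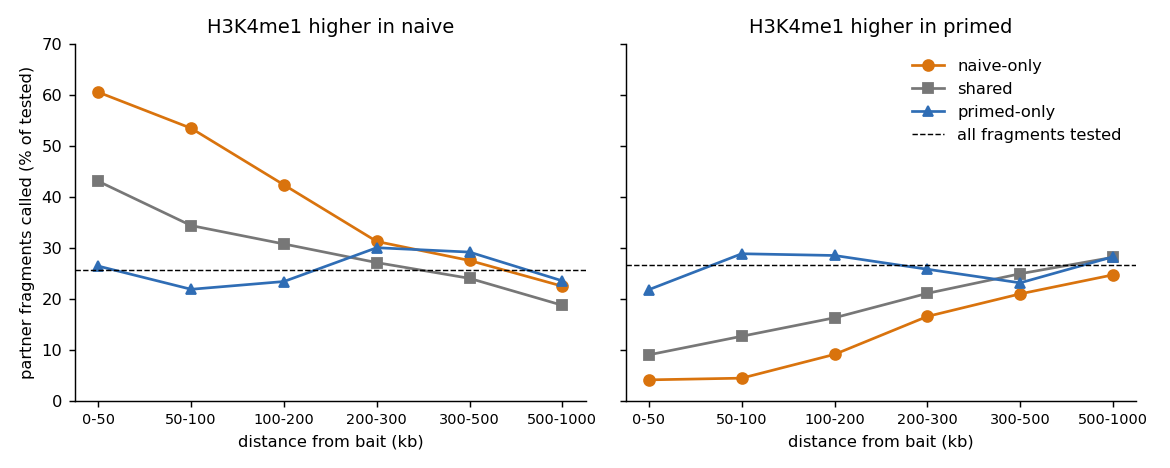
Share of tested partner fragments, in percent, with H3K4me1 higher in naive (left) or in primed PSCs (right) by limma, against the distance from the bait in kb, for naive-only, shared and primed-only contacts. Dashed lines give the share among all fragments tested (25.6% and 26.7%); the naive-only points start at 60.5% within 50 kb and end at 22.5% beyond 500 kb.

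At the promoter end the change was smaller. Of the 7662 baits with a naive-only contact 5186 were tested, of which 1443 (27.8% of tested, 18.8% of all) had more H3K4me1 in naive and 446 (8.60%, 5.82%) more in primed PSCs. Among all 10615 tested baits of both lists the shares were 25.4% and 10.2%, so the baits of naive-only contacts were near the background of baits. Baits without any primed contact reached 34.0% and 6.45% of 1070 tested, and baits with 10 or more naive-only contacts 68 and 13 of 171. Without naive replicate 2 only 937 baits were higher in naive PSCs, without primed replicate 3 940, and without naive replicate 1 only 176 were higher in primed PSCs. The mark was present at most baits in every library but the deepest, with a tile above 1 RPM at 59.3% and 64.1% of baits in naive and 62.1%, 58.1% and 39.7% in primed libraries.

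Both ends were called together at few contacts. At 1061 of 20117 naive-only contacts (5.27%) the bait and the partner both had more H3K4me1 in naive PSCs, compared with 2.67% of shared and 1.64% of primed-only contacts. Both ends were higher in primed PSCs at 90 (0.447%), and the ends moved in opposite directions at 77 and 52. A partner that gained the mark in naive PSCs faced an uncalled bait at 1276 contacts. At 4812 contacts (23.9%) neither end had enough signal for a test. Leaving out naive replicate 2 lowered the 1061 to 649, naive replicate 1 to 705 and primed replicate 3 to 676.

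The 10 baits with the most naive-only contacts had 23 to 39 of them each. A bait without a promoter in GENCODE at chrX:150486324-150493659, 78.4 kb from the start of the myotubularin gene MTM1, led with 39 of its 48 naive contacts, 155.0 to 514.2 kb away, and had 3 primed contacts. SH3KBP1 on chromosome X, which encodes an adaptor of receptor endocytosis, had 38 of 56, with 4 primed contacts. TBPL2 on chromosome 14, a TATA-binding protein relative of the oocyte, had 36 of 42. Next came the shared bait of CFAP276 and ELAPOR1 with 29, the small nucleolar RNA SNORD87 with 26, the DNA primase subunit PRIM2 with 26, an unnamed bait at chr19:37235859-37239523 with 25, the thioredoxin reductase TXNRD1 with 25, STRADB with 24 and RNU6-842P with 23.

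These rich baits differed in what their primed list held and in H3K4me1. STRADB and SNORD87 had no primed contact within the limit, whereas PRIM2 had 35, 26 of them shared, and RNU6-842P 30, 22 of them shared. H3K4me1 at the bait was higher in naive PSCs for TXNRD1 (log2 difference 1.85, SE 0.30, limma adjusted p = 0.000197), TBPL2 (1.58, SE 0.31, adjusted p = 0.000871) and RNU6-842P (1.26, SE 0.36, adjusted p = 0.00929). The RNU6-842P call was lost without naive replicate 1, with 0.97 and an adjusted p of 0.0984, and the TBPL2 call when the highest tile stood for the fragment, with 0.59 and 0.135. At the partners, 9 of 14 tested fragments of the CFAP276 bait, 6 of 9 of TXNRD1, 3 of 8 of SH3KBP1 and 2 of 11 of TBPL2 had more H3K4me1 in naive PSCs and none was called the other way. SNORD87 had 4 of 6 higher in naive and 1 higher in primed PSCs, and STRADB 1 and 3 of 6. The remaining 4 baits had 2 to 4 tested partners each, with 1 of 4 higher in naive PSCs at the bait near MTM1, 2 of 4 at PRIM2, 3 of 3 at the unnamed bait of chromosome 19 and 2 of 2 at RNU6-842P.

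Genes of naive pluripotency had few naive-only contacts, and most of the partners that could be tested had more H3K4me1 in naive PSCs. Only 15 of the 33 genes of that list had a bait in the interaction lists. Over its 14 baits 13 of 79 naive contacts were naive-only (16.5%), from 7 baits. Of their 7 tested partners 6 were higher in naive and none higher in primed PSCs, also by edgeR and at an unadjusted p under 0.05. The DPPA5 bait held 4 of these 6, and all tested naive-only partners gave 39.8% and 12.8%. The seventh, a TFAP2C partner at 188.3 kb, differed by -0.44 (adjusted p = 0.28) and was called higher in primed PSCs with the highest tile of the fragment (-1.365, adjusted p = 0.00425). Of the 14 baits 9 were higher in naive and 1 higher in primed PSCs, beside 25.4% and 10.2% of all tested baits. DPPA5, an RNA-binding protein of pluripotent cells, shares its bait at chr6:73353243-73366321 with KHDC3L, a maternal protein of the oocyte. This bait had 4 naive contacts, all naive-only, and none in the primed list. The log2 RPM at the bait was 0.45 and 0.35 in naive and -2.65, -1.91 and -2.57 in primed libraries, a difference of 2.78 (SE 0.34, limma adjusted p = 3.57e-05), with both naive libraries above all primed ones.

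The 4 partners of DPPA5 lay 11.6 kb before the bait and 36.9, 243.7 and 245.6 kb after it in the order of coordinates. The farther pair fell into introns of SLC17A5, a lysosomal sialic acid transporter, with scores of 5.29 and 5.33 from 10 reads each. The partner at 243.7 kb had 1.14 and 0.94 in naive and -3.30, -2.48 and -3.07 in primed libraries, a log2 difference of 3.99 (SE 0.34, limma adjusted p = 9.86e-06). Those at 36.9 and 245.6 kb differed by 3.003 and 3.476. In all 3 the primed libraries were low and none reached the naive values. At 243.7 kb primed replicate 1 stood at -3.30, the value of a tile without reads in that library, so the fitted difference depends on that floor. The nearest partner differed by 1.02 (adjusted p = 0.0373), a call lost with the highest tile of the fragment (0.575, adjusted p = 0.233) and without naive replicate 1 (0.86, adjusted p = 0.244), naive replicate 2 (adjusted p = 0.105) or primed replicate 3 (adjusted p = 0.104).

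Other naive genes had 1 or 2 contacts each. TBX3, a T-box transcription factor, reached an intergenic partner at 446.7 kb with a score of 9.10, where log2 RPM was -0.44 and -0.38 in naive and -2.37, -2.51 and -2.74 in primed libraries (difference 2.13, SE 0.30, limma adjusted p = 8.33e-05). The printed TBX3 window holds the TFAP2 motif. It is among the 4 windows with any motif match out of 42 for partners of named genes that gained the mark. The TBX3 bait was not called (-0.17, adjusted p = 0.742). OLAH, a thioesterase of fatty acid synthesis, contacted a fragment 9.0 kb away with an untranslated exon of OLAH itself, which differed by 3.35 (SE 0.32, adjusted p = 1.16e-05), and its bait by 1.95. The partners of HORMAD1 of the meiotic chromosome axis and of the alkaline phosphatase ALPG were not tested, although their baits were higher in naive PSCs by 2.11 and 1.84. TFAP2C, an AP-2 transcription factor, had 2 naive-only among 20 naive contacts, neither called by limma on the fragment mean. Among listed genes with a bait, KLF17, DPPA3, ESRRB, SUSD2, GDF3, FGF4 and TRIM60 had none. TFCP2L1, ALPP, KLF4 and DNMT3L, also on the list, had no bait in the interaction lists.

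IL6ST, the gp130 receptor subunit through which LIF signals, was the clearest case in the LIF and JAK-STAT list. All 6 of its naive contacts within the limit were naive-only, the primed list held none, and all 6 partners gained H3K4me1 in naive PSCs. They lay 77.6 to 181.2 kb from the bait on the higher-coordinate side, in introns of ENSG00000249236 and ANKRD55, with scores of 5.48 to 7.56. The partner at chr5:56071835-56075203, 79.9 kb away, had 1.06 and 0.97 in naive and -3.08, -3.11 and -3.54 in primed libraries, a log2 difference of 4.25 (SE 0.31, limma adjusted p = 9.31e-06). The other 5 differed by 1.70 to 3.24. At the partner 79.9 kb away primed replicates 1 and 2 were near the values of a tile without reads, -3.30 and -3.13. Its fitted difference thus depends on that floor. The naive libraries were above every primed library at each of the 6. The bait differed by 1.32 (SE 0.34, adjusted p = 0.0052). Over the whole list of 14 genes 19 of 79 naive contacts (24.1%) were naive-only. Of its 12 tested partners 9 were higher in naive and none higher in primed PSCs, also by edgeR and at an unadjusted p under 0.05. IL6ST held 6 of these 9, and all tested naive-only partners gave 39.8% and 12.8%. Of the 12 tested baits of the list 2 were higher in naive and 0 higher in primed PSCs.

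REST, which represses neuronal genes outside the nervous system, had 10 naive-only among 11 naive contacts and no primed contact within the limit. The study chose REST and 17 other genes on these samples, so they are not independent examples. A run of 6 intergenic partners lay 59.8 to 73.8 kb on the lower-coordinate side, with scores from 5.29 to 16.3 and up to 135 reads. The partner at 69.0 kb had 0.77 and 0.76 in naive and -2.67, -2.73 and -2.40 in primed libraries (difference 3.37, SE 0.32, limma adjusted p = 1.16e-05), and that at 73.8 kb differed by 3.34. The partner with the highest score, at 64.3 kb, was marked in both states, with 1.70 and 1.16 against 1.52, 0.50 and 0.84, and was not called (0.48, adjusted p = 0.35). Of 8 tested partners 6 were called higher in naive PSCs. Without naive replicate 1 the calls at 62.6 kb (1.22, adjusted p = 0.155) and 65.7 kb (0.85, adjusted p = 0.261) were lost, and the latter also without naive replicate 2 (adjusted p = 0.0866), primed replicate 1 (0.0666) or primed replicate 3 (0.12). Both were also lost with the highest tile of the fragment (0.08, adjusted p = 0.866 and 0.57, adjusted p = 0.301). The REST bait had too little signal for a test.

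**Figure D5:**
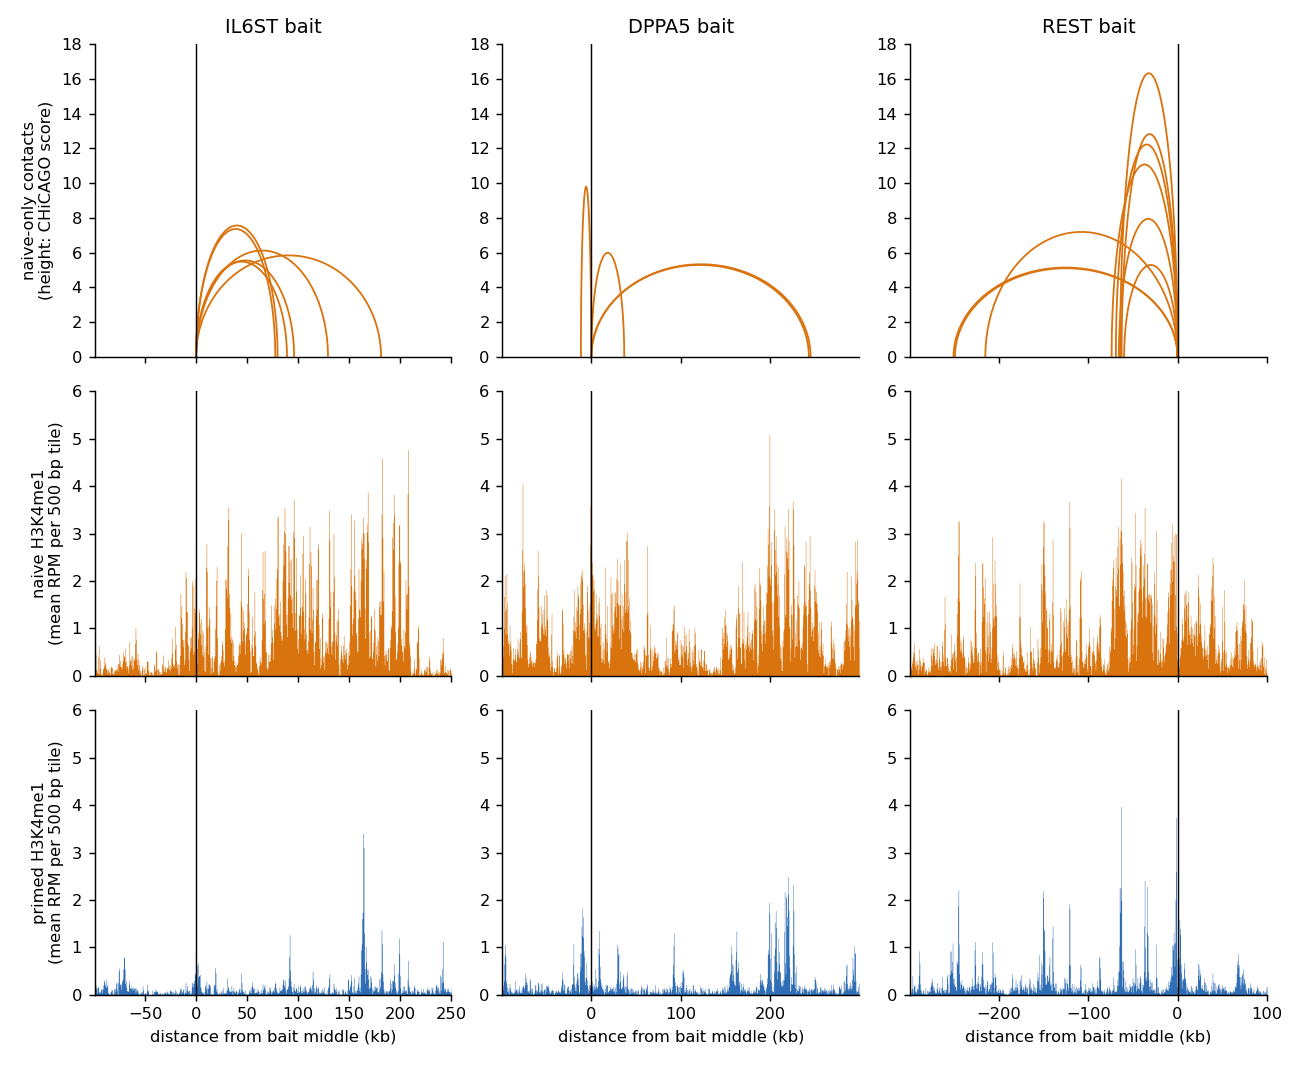
Naive-only contacts and H3K4me1 around the baits of IL6ST, DPPA5 and REST, against the distance in kb from the bait middle. Arcs in the top row join bait and partner with a height equal to the CHiCAGO score; the lower rows show mean RPM per 500 bp tile over 2 naive (orange) and 3 primed libraries (blue), with naive signal at the partners 77.6 to 181.2 kb from IL6ST where the primed track is low.

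YPEL2, of the yippee family of proteins, had 11 naive-only among 27 naive contacts and 13 primed ones. Its partner at 87.5 kb had 1.776 and 1.097 in naive and -3.22, -1.82 and -2.57 in primed libraries (log2 difference 3.97, SE 0.43, limma adjusted p = 1.8e-05). Of 6 tested partners 5 were higher in naive PSCs. Calls at 108.2 kb (1.33, adjusted p = 0.102) and 296.4 kb (1.44, adjusted p = 0.0501) were lost without naive replicate 1, and the latter also with the highest tile of the fragment (0.634, adjusted p = 0.262). A run of 5 further partners 157.9 to 176.5 kb away in LINC01476, with a score of up to 9.75, was not tested for want of signal. The beta-actin gene ACTB had 4 naive-only of 25 contacts with 1 of 2 tested partners higher in naive PSCs. DUSP6, an ERK phosphatase, and OTX2, a transcription factor of primed PSCs, had no naive contact and 34 and 10 primed-only ones. IL6 had 1 naive-only among 19 naive contacts, 16 of which were shared, and TET1 had no naive contact with a fragment without a bait up to 1 Mb. The study names IL6 and TET1 for contacts with super-enhancers in naive PSCs only. That measure rests on enhancer state as well as contacts and was not used here. Over the genes named by the study 17 of 23 tested partners were higher in naive and 1 higher in primed PSCs. All tested naive-only partners gave 39.8% and 12.8%. REST held 6 of the 17, YPEL2 5 and DPPA5 4, so that few baits gave most of them.

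Genes of DNA methylation and chromatin had the highest naive-only share of the lists, 51 of 98 naive contacts (52.0%, 42.3 to 61.7). TET3, which oxidises methylated cytosine, had 15 of 17, and EED, a subunit of Polycomb repressive complex 2, had 11 of 34. Of the 23 tested partners of the list 13 were higher in naive and none higher in primed PSCs (0 at an unadjusted p under 0.05, 1 by edgeR). All tested naive-only partners gave 39.8% and 12.8%. REST, described above and also on this list, held 10 of the 51 contacts and 6 of the 13 partners, whereas TET3 gave 1 of 4 and EED 0 of 2. Zinc finger genes, many of which encode repressors of transposable elements, followed with 293 of 702 (41.7%), 18 of them at ZNF383 and 13 at ZNF420. Of their 83 tested partners 40 were higher in naive and 3 higher in primed PSCs, beside 39.8% and 12.8% of all tested naive-only partners and 25.6% and 26.7% of all tested fragments. Of their 200 tested baits 73 were higher in naive and 10 higher in primed PSCs, beside 25.4% and 10.2% of all tested baits. Split by position after the values were seen, the zinc finger baits of chromosome 19 had 121 of 188 (64.4%, 57.3 to 70.9), those of other chromosomes 172 of 514 (33.5%, 29.5 to 37.7), and all other baits of chromosome 19 408 of 921 (44.3%, 41.1 to 47.5). The primed-only share of the zinc finger baits of chromosome 19 was as high, at 67.1%.

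Housekeeping lists were close to the overall share of 29.7%. Ribosomal protein genes had 102 of 336 (30.4%), with 25 of 42 tested partners higher in naive and none higher in primed PSCs (1 at an unadjusted p under 0.05, 1 by edgeR). RPS6, a protein of the small ribosomal subunit, had 12 of 15, and 6 of its 10 tested partners were called, between 42.6 and 60.4 kb away, with log2 differences of 1.45 to 3.11. With the highest tile of the fragment the calls at 56.6 kb (0.77, adjusted p = 0.195) and 60.4 kb (0.785, adjusted p = 0.106) were lost. The bait of RPL36AL and MGAT2 had 7 naive contacts, all naive-only, and its 3 tested partners were all higher in naive PSCs, by 1.39 to 2.40. Oxidative phosphorylation genes had 92 of 283 (32.5%), led by ATP5PB with 9. Of their 37 tested partners 20 were higher in naive and 1 higher in primed PSCs. Both lists stand beside 39.8% and 12.8% of all tested naive-only partners and 25.6% and 26.7% of all tested fragments.

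Genes of primed cells and of later development contributed fewer. Genes of the primed list had 16 of 108 naive contacts (14.8%), 9 of them at the Wnt antagonist SFRP2 and 3 at ETV5, beside 113 primed-only contacts. Of their 18 tested baits 1 was higher in naive and 4 higher in primed PSCs, and of 5 tested partners 2 and 1. ERK feedback genes had 15 of 104 (14.4%), with 3 each at ETV5 and SPRY2. Of their 9 tested partners 5 were higher in naive and 1 higher in primed PSCs, and of 15 tested baits 2 and 2. Developmental families had 140 of 843 (16.6%), with 15 at HOXC8 and 13 at HOXC6, partly from the same baits. Their 37 tested partners split into 8 higher in naive and 9 higher in primed PSCs, beside 39.8% and 12.8% of all tested naive-only partners. All tested fragments gave 25.6% and 26.7%. Of the 95 tested baits of these families 8 were higher in naive and 20 higher in primed PSCs, beside 25.4% and 10.2% of all tested baits. Histone genes, which belong to neither group, had 16 of 224 (7.14%), with a primed-only share of 8.89%. Of their 27 tested baits 12 were higher in naive and 0 higher in primed PSCs, and of 7 tested partners 4 and 0. The study describes a histone gene cluster with more promoter contacts in naive PSCs. Contacts between baits were left out here, so these shares do not measure that cluster as a whole. Protocadherins had 14 of 337 (4.15%), with a primed-only share of 28.4%. In the core pluripotency list 23 of 72 (31.9%) were naive-only, 13 at MYCN and 5 at SALL4. Of its 7 tested partners 2 were higher in naive and 1 higher in primed PSCs, again beside 39.8% and 12.8%.

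Trophoblast genes had 29 of 112 (25.9%), with 8 at the keratin gene KRT7 and 6 at WWTR1, the Hippo coactivator TAZ. Of their 21 tested baits 5 were higher in naive and 5 higher in primed PSCs. Of 11 tested partners 4 were higher in naive and 2 higher in primed PSCs, near the 39.8% and 12.8% of all tested naive-only partners. The latter pair belonged to KRT7. Its partner at 572.1 kb had -2.34 and -2.09 in naive and -0.89, -0.80 and -0.41 in primed libraries (log2 difference -1.52, SE 0.33, limma adjusted p = 0.00161). Its partner at 567.1 kb differed by -0.84 (adjusted p = 0.0308), a call lost without naive replicate 1 (adjusted p = 0.0997), naive replicate 2 (0.134) or primed replicate 3 (0.0932).

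Across all partners the 8 largest gains of H3K4me1 in naive PSCs were 4.25 to 4.42 on the log2 scale. The largest was at chrX:123455715-123456310 in an intron of the glutamate receptor gene GRIA3, 315.9 kb from the RNU7-69P bait, with 0.87 and 1.05 in naive and -3.22, -3.13 and -4.02 in primed libraries (SE 0.34, limma adjusted p = 9.31e-06). The RNU7-69P bait, at chrX:123770608-123773177 and 37.7 kb from the start of the mRNA export gene THOC2, was itself among the baits with the largest gains (3.66, SE 0.34). It had 19 naive-only contacts and no primed contact. The next partners belonged to PIK3AP1, ZNF540, UBAP2, ENSG00000251974, UBE3C, ACSL3 and TNS3, at distances of 13.5 to 405.5 kb. At most of these the primed libraries were near the value of an empty tile, which lies between -2.91 and -4.89 depending on depth, so that the fitted differences depend on that floor.

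Among the baits, SPTBN1, which encodes a spectrin of the membrane skeleton, gained most (3.91, SE 0.36). ZNF585A followed with 3.82. The SPTBN1 bait had 32 primed contacts beside its 4 naive-only ones. The largest differences the other way were at partners of the UBE2U bait in an intron of ROR1, with -4.16 and -2.04 in naive and 1.17, 0.36 and 0.56 in primed libraries (log2 difference -3.79, SE 0.53, limma adjusted p = 7.24e-05), of the ANKS1A and TAF11 bait in SCUBE3 (-3.79), of an unnamed bait on chromosome 17 (-3.76) and of MIR1289-2 in an intron of FSTL4 (-3.75). The baits of SHANK2-AS2 (-3.91), NTM-AS1 (-3.79) and TBX15 (-3.51), a T-box transcription factor, had the largest losses in naive PSCs. Contacts listed only in naive PSCs thus included ends with far more H3K4me1 in primed PSCs.

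Some partners were contacted by many promoters. The fragment chr14:49756984-49770477, holding exons of KLHDC2, had naive-only contacts with 10 baits, among them POLE2, RPS29, VCPKMT and RPL36AL, at 54.4 to 345.8 kb with scores of 6.39 to 15.5, and no primed contact. Its log2 RPM was -1.25 and -0.73 in naive and -2.24, -2.25 and -2.65 in primed libraries (difference 1.39, SE 0.32, limma adjusted p = 0.00236). A fragment with exons of DPF2, a subunit of BAF remodelling complexes, at chr11:65329964-65339558 had 9 and differed by 1.21 (SE 0.32, adjusted p = 0.00636), a call lost with the highest tile of the fragment (0.523, adjusted p = 0.318). Those at UBAC1 (9 baits, -0.41, adjusted p = 0.334) and at CTDNEP1 and DVL2 (8 baits, 0.56, adjusted p = 0.181) were not called. A fragment at chr14:101630999-101632030 was reached by 8 baits of the MEG9 and microRNA cluster, had 12 primed contacts as well, and was not tested. In total 489 partners had 3 or more baits.

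The sequence of the partners was much like that of other contacted fragments. In the most marked tile of each of 16656 partners the median GC content was 43.4%, against 42.8% for shared and 41.4% for primed-only partners and 44.2% for all tested fragments. At least 1 of 6 motifs, searched as exact matches on both strands, was present in 18.6% of these tiles, against 17.9%, 16.9% and 24.0%. The motifs were GCCNNNGGC (TFAP2), GGGNGTGGC (KLF), ATTTGCAT (octamer of POU factors), TCAAGGTCA (NR5A and ESRRB), AGNGGGCGC (part of the CTCF motif) and GGGCGGGGC (SP), and matches of different motifs may overlap. Among the 2330 partners with more H3K4me1 in naive PSCs the TFAP2 letters were found in 13.1%, compared with 13.8% of all fragments that gained the mark and 16.2% of the 751 partners that lost it. The KLF letters stood in 3.43% of gaining and 2.40% of losing partners, and in 3.71% of all gaining and 1.82% of all losing fragments. For the octamer these shares were 4.89%, 4.53%, 5.49% and 6.96%. Of the 42 partners of named genes that gained the mark, 4 held a match in the 300 bases at the top tile.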

How the data were processed

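PCHi-C, Hi-C and H3K4me1 CUT&RUN of naive and primed PSCs were analysed, grouped by the state and replicate number in the labels. Per the labels and the study's methods, the authors trimmed Hi-C and PCHi-C reads with Trim Galore 0.4.5, mapped them to GRCh38 with HiCUP (the submitters' processing notes list Bowtie2 2.2.7 and 2.3.2), combined 2 replicates per state in CHiCAGO, and deposited pairs with a score of at least 5 and a rounded, combined read number, which is also treated as a score. The authors deposited Hi-C as counts of di-tags per pair of 100 kb bins. For H3K4me1 the authors used Trim Galore 0.5.0 and Bowtie2 2.3.2 and deposited log2 RPM per 500 bp tile from SeqMonk. All non-empty values were whole reads (100% within 0.02 reads), and an empty tile stood at 0.9 reads, a floor that is lower in deeper libraries.

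HindIII fragments were computed from GRCh38 and matched every fragment of the lists. Since the lists carry no gene names, baits were named from GENCODE release 44 by a transcript start or the 1000 bp upstream of it. Of 15982 baits, 1049 had none. A fragment's H3K4me1 was the mean log2 RPM of the tiles whose middle it held. Fragments with a tile above 1 RPM in at least 2 of the 5 libraries were fitted with limma 3.58.1 (trend; R 4.3.3) on state and adjusted by Benjamini-Hochberg at 0.05, and the fit was checked on simulated data. edgeR 4.0.16 was run on the recovered reads as an alternative added later. Shares carry 95% Wilson intervals, which, like the Hi-C intervals, cover counting error only. No test was made on contacts, with 1 list and 1 Hi-C library per state.

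The contact rule, gene lists and motifs were chosen with earlier results of these data known. Genes and fragments were named by rule: the 10 richest baits, at most 16 listed naive or study-named genes with a contact, the 2 richest genes of each other list, the largest H3K4me1 differences without overlap of libraries (8 partners and 6 baits higher in naive, 4 and 3 higher in primed PSCs), and the 5 partners with most baits. The split of zinc finger genes by chromosome, and the sequences of IL6ST, REST and TBX3 partners, were chosen after values were seen. Repeat content was not analysed here.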

Additional observations from a re-analysis of the deposited data

How the results depend on the processing

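The count of 20117 contacts followed the rule: it was 34343 without a tolerance, 8930 with 50 kb, 4272 with a naive score of at least 7 and 580 with at least 10. Of these contacts 19016 lay outside chromosome X. At partners, 2330 fragments higher in naive PSCs became 1205 with 50 kb and 118 with scores of at least 10, and 751 higher in primed PSCs became 1279 without a tolerance, 324 with 50 kb, 18 with scores of at least 10 and 467 for partners without primed contact. In each of these sets more tested partners were higher in naive than in primed PSCs. Leaving out 1 library at a time gave 1749 to 2462 partners higher in naive and 383 to 873 higher in primed PSCs, the lowest of the latter without naive replicate 1. The corresponding ranges were 937 to 1622 and 176 to 491 for baits, 649 to 1201 for contacts with both ends higher in naive PSCs, and 27882 to 39838 and 23642 to 43285 for all fragments. With the highest tile of a fragment, 874 baits were higher in naive PSCs and 575 contacts had both ends higher, and the ACTB bait at chr7:5505473 changed from 1.13 to -0.04. Without the filter on low values 62489 of all fragments were higher in primed PSCs. With edgeR on recovered reads, added after seeing the data, 673 baits were higher in primed PSCs, and 2255 of the 2330 partners were also called. The Hi-C log2 ratio was 0.1013 at 100 kb only, 0.1209 up to 500 kb, 0.1002 for pairs in both files and 0.1036 within chromosomes, the last also added after seeing the data. Over 147 single fragments of named genes and markers, 90 values under other settings lost their call, 33 gained one, 1 turned its sign and 1640 kept direction and call. Other fits moved the median difference of all fragments by at most 0.10.

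Naive and primed libraries share replicate numbers 1 and 2, but nothing in the labels ties same-numbered libraries together. Deviations from the state means correlated across fragments at 0.082 for number 1 and 0.098 for number 2. With the replicate number as a block, 839 baits were higher in naive and 275 higher in primed PSCs, and 605 contacts had both ends higher in naive PSCs. Number 3 exists in primed PSCs alone, so the block also takes primed replicate 3 out of the contrast, and leaving out that library without a block gave 940, 316 and 676. At partners the block gave 1753 and 531, against 1847 and 584 without that library, and 1752 and 527 of the former were also called in the fit of all 5 libraries without a block. In the shallowest library, of 6743809 reads, weakly marked fragments rest on few reads, and fragments that did not pass the filter were not tested.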
